A study of Mus musculus with 18 samples.

Results

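Transcripts of 10 intestinal transporters of peptides, amino acids and taurine were followed in sorted epithelial cells of the ileum, the distal small intestine, of female mice. The genes were chosen by name for their roles in the uptake of protein digestion products, with earlier results of these data known. Counts of them set beside all genes are therefore a description. Each count row whose Ensembl ID carried one of the symbols Slc15a1, Slc3a1, Slc7a9, Slc7a15, Slc6a19, Slc6a20a, Slc6a14, Slc7a7, Slc1a1 or Slc6a6 in GENCODE M21 was taken. All 10 were found among the 47729 genes of each count table, and all 10 passed the filter on low counts, which 14675 genes passed. The study compared 3 reproductive states: pregnant mice, pseudopregnant mice (in which the hormonal state of early pregnancy runs without embryos) and virgin mice, with 6 libraries in each. All groups had RM1 chow during the experiment and RM3 when breeding. The labels name no transgene or drug, and they do not give the strain, age, day of pregnancy, way of inducing pseudopregnancy, sort markers and batch.

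Dietary protein reaches the ileum as short peptides and free amino acids. Enterocytes take up peptides across the brush border with protons and most free amino acids with sodium or by exchange, split the peptides inside the cell, and pass amino acids to the blood through exchangers on the basolateral side. Several of these carriers are pairs of proteins: a light chain that transports and a heavy chain, such as the products of Slc3a1 and Slc3a2, that brings it to the membrane.

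Promoter sequence was available from RefSeq for 9 of the 10 genes, all but Slc6a6, on GRCm38.p6, the build of the counts. The 250 bases before the RefSeq start (the first listed where there are several) are printed for a heavy chain, its light chain and a related light chain (Slc3a1, Slc7a9 and Slc7a15), because these genes share a transport system or a gene family and their levels are compared below. Capitals mark matches, on either strand, to the letters of 4 short motifs: CAAAGTCCA of HNF4, AGATAA of GATA factors, TTTATNG of CDX factors and TATAAA of the TATA box.
Slc3a1, chr17:85028097-85028346, plus strand: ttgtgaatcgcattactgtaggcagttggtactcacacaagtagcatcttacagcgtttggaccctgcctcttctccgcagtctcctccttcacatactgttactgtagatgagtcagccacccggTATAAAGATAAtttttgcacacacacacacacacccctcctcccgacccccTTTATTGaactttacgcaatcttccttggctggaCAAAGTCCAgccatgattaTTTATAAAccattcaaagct
Slc7a9, chr7:35448842-35449091, plus strand: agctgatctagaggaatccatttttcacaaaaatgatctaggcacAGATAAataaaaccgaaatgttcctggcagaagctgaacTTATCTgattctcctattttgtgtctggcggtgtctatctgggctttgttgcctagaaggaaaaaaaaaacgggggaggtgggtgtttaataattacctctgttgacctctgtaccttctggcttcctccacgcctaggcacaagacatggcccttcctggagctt
Slc7a15, chr12:8599067-8599316, minus strand: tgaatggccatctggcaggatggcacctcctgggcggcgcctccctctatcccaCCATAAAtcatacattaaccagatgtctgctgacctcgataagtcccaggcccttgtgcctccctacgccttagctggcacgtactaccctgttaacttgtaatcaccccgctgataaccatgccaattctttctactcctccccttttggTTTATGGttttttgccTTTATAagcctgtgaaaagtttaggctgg
The Slc3a1 window held the HNF4 letters at 39 to 31 bases before the start, letters found in 0.384% of the 32851 RefSeq windows of the same length. It also held a CDX match at 73 to 67 bases, a GATA match at 119 to 114 bases and TATA letters at 124 to 119 and at 18 to 13 bases. The GATA match shares a base with the first TATA match, and the second TATA match overlaps another on the opposite strand. The Slc7a9 window held a pair of GATA matches, at 205 to 200 and 166 to 161 bases. The Slc7a15 window held CDX matches at 45 to 39 and 196 to 190 bases and TATA letters at 29 to 24 bases. These other motifs are common, with GATA letters in 9.99%, CDX letters in 9.81% and TATA letters in 12.4% of all windows. A match describes the letters only. The RefSeq start of Slc3a1 lies before the start of the gene in GENCODE M21, and the printed Slc7a9 window lies inside the GENCODE gene. RefSeq lists a second start for Slc7a9 and for Slc7a15, and the window before each of these held 0 matches to the 4 motifs.

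Libraries held 24.9 to 37.3 M counts (median 31.5 M). The epithelial gene Epcam stood at 1639 to 3589 CPM and the leukocyte gene Ptprc at 0.198 to 0.638 CPM over the 18 libraries. CPM is a gene's count per mega (M) of counts in its library, here scaled by TMM, a correction for library composition. The labels do not say that replicates are separate animals, and p-values therefore speak only for the spread among these libraries. The 10 genes together took 0.194% to 0.351% of a library's counts in the pregnant group (median 0.264%), 0.203% to 0.274% in the pseudopregnant group (median 0.238%) and 0.168% to 0.301% in the virgin group (median 0.204%).

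Divided by exon length, CPM per kilobase placed 4 of the brush border carriers on top. Over the 18 libraries the medians were 106 CPM per kb for Slc3a1, 104 for Slc6a19, 102 for Slc7a9 and 89.4 for Slc15a1. Their ranges overlapped widely, from 71.7 to 171 for Slc3a1 and from 67.0 to 188 for Slc15a1, and the order of these neighbours held in only 9 to 12 of 18 libraries. Slc7a7 followed at a median of 69.4 CPM per kb, below Slc15a1 in 18 of 18 libraries, and Slc6a20a at 56.0. Slc7a15 stood at 28.3, below Slc6a20a in 18 of 18 libraries, Slc1a1 at 16.5 and Slc6a6 at 11.1. Slc6a14 was near the limit of detection, at a median of 0.0742 CPM per kb and a range of 0.0230 to 1.62. Only between Slc6a6 and Slc6a14 did the ranges of neighbours in this order not overlap.

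**Figure D1:**
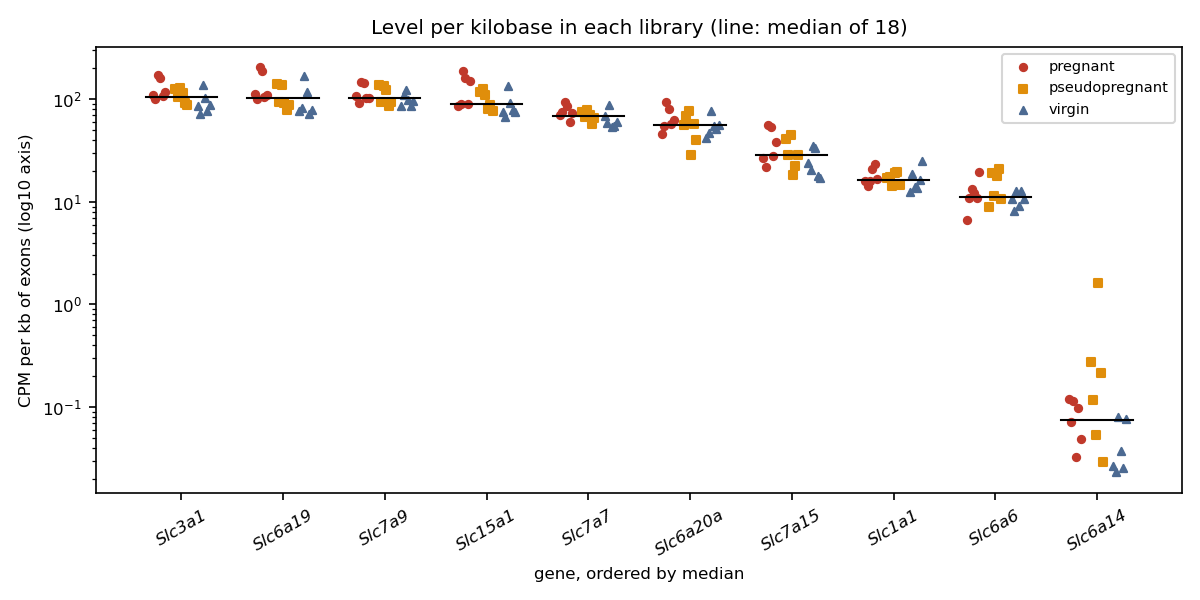
CPM per kilobase of exon (log axis) of the 10 transporters in pregnant, pseudopregnant and virgin libraries, one point per library. Slc3a1, Slc6a19, Slc7a9 and Slc15a1 share the top with medians of 89.4 to 106, and Slc6a14 lies apart at 0.0742.

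In pregnant against virgin ileum all 10 transporters had a fold change above 0, with a median log2 fold change of 0.35, where 48.5% of the 14675 genes tested were above 0 and their median was -0.01. No transporter passed an adjusted p of 0.05 in edgeR's quasi-likelihood test with Benjamini-Hochberg adjustment, which called 0% of all genes in this comparison, nor in DESeq2 or limma-voom. At an unadjusted p under 0.05 there were 3 of 10 (Slc15a1, Slc3a1 and Slc7a15), all higher, against 3.68% of all genes in either direction (2.02% higher and 1.66% lower). The groups overlapped for every transporter (0 of 10 were apart, against 0.0681% of all genes). In RNA from a mixed population, more cells of a type and more RNA per cell cannot be told apart.

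The peptide carrier is Slc15a1 (PepT1), which takes up dipeptides and tripeptides with protons across the brush border (chromosome 14, 121459621 to 121505252, minus strand). It had 423, 586 and 916 CPM in the lowest, median and highest pregnant library, 376, 485 and 618 CPM in pseudopregnant libraries, and 327, 376 and 651 CPM in virgin libraries. Pregnant replicates 3, 4 and 6 lay above the highest virgin library, and pregnant replicates 1, 2 and 5 lay within the virgin range. The mean was 622 ± 216 CPM in pregnant, 489 ± 105 in pseudopregnant and 424 ± 118 in virgin libraries (SD, n = 6 each). The log2 fold change of pregnant over virgin was 0.55 (SE 0.22), with 6 of 6 pregnant libraries above the virgin median and an edgeR adjusted p of 0.891.

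The exchange system for cystine and basic amino acids at the brush border is built of the heavy chain Slc3a1 (rBAT; chromosome 17, 85028376 to 85064236, plus strand) and the light chain Slc7a9 (chromosome 7, 35448796 to 35466036, plus strand). Loss of either gives cystinuria in humans. Slc3a1 had 226, 259 and 388 CPM in the lowest, median and highest pregnant library, 201, 249 and 293 CPM in pseudopregnant libraries, and 163, 198 and 316 CPM in virgin libraries. Pregnant replicates 3 and 4 were high, and virgin replicate 3 was the only virgin library above the pregnant median. Its log2 fold change of pregnant over virgin was 0.44 (SE 0.17), with 6 of 6 pregnant libraries above the virgin median and an edgeR adjusted p of 0.891. Of 50-base stretches of Slc3a1 exons, 24.8% also lie on the opposite strand in exons of Prepl, which had 10079 counts in all against 140649 of Slc3a1. Slc7a9 averaged 311 ± 64.2 CPM in pregnant, 298 ± 60.8 in pseudopregnant and 268 ± 38.9 in virgin libraries, and its log2 fold change of pregnant over virgin was 0.21 (SE 0.15).

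Slc7a15 encodes a light chain of the same family, described in mouse as preferring aromatic amino acids (chromosome 12, 8528483 to 8599066, minus strand). It had 66.1, 99.8 and 168 CPM in the lowest, median and highest pregnant library, 54.8, 86.0 and 133 CPM in pseudopregnant libraries, and 51.5, 65.8 and 106 CPM in virgin libraries. Pregnant replicates 3 and 4, at 168 and 161 CPM, stood above all virgin libraries, as did replicate 6. The log2 fold change of 0.61 (SE 0.26) was the largest in this comparison among the transporters other than Slc6a14, with 6 of 6 pregnant libraries above the virgin median and an edgeR adjusted p of 0.891.

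The sodium-driven carriers were the abundant Slc6a19, the main neutral amino acid carrier of the brush border (chromosome 13, 73679745 to 73704865, minus strand), and Slc6a20a, a proline and imino acid carrier (chromosome 9, 123634770 to 123678885, minus strand). Slc6a19 had 507, 562 and 1027 CPM in the lowest, median and highest pregnant library, 391, 466.4 and 697 CPM in pseudopregnant libraries, and 359, 402 and 842 CPM in virgin libraries. Pregnant replicates 3 and 4 lay above all virgin libraries, and virgin replicate 3 lay above all pseudopregnant libraries. Its log2 fold change of pregnant over virgin was 0.47 (SE 0.24), with an unadjusted p of 0.0662 and an adjusted p of 0.891 by edgeR. Slc6a20a averaged 270 ± 73.4 CPM in pregnant, 223 ± 72.2 in pseudopregnant and 224 ± 49.3 in virgin libraries, a log2 fold change of pregnant over virgin of 0.27 (SE 0.22). Its near copy Slc6a20b, at 24.4 ± 9.57, 22.7 ± 9.94 and 17.3 ± 8.38 CPM in the same order, shares 631 of the 4128 50-base stretches of Slc6a20a exons, so reads between them may be split.

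Slc7a7 is the light chain of the basolateral exchanger that passes basic amino acids to the blood with Slc3a2 (chromosome 14, 54369442 to 54417780, minus strand). It averaged 254 ± 40.7 CPM in pregnant, 230 ± 24.8 in pseudopregnant and 213 ± 43.3 in virgin libraries, and 6 of 6 pregnant libraries lay above the virgin median (log2 fold change 0.25, SE 0.14). Of 50-base stretches of Slc7a7 exons, 5.25% lie on the opposite strand in exons of Oxa1l, which had 22626 counts in all against 129858 of Slc7a7. Slc3a2, the heavy chain, averaged 330 ± 47.4, 292 ± 58.5 and 291 ± 53.8 CPM, and Slc7a8, a basolateral neutral exchanger on the same heavy chain, 168 ± 67.8, 165 ± 52.5 and 122 ± 37.0 CPM, in the same order. Slc1a1, which takes up glutamate and aspartate (chromosome 19, 28835049 to 28913960, plus strand), averaged 147 ± 29.1 CPM in pregnant, 141 ± 18.2 in pseudopregnant and 138 ± 39.3 in virgin libraries (log2 fold change of pregnant over virgin 0.09, SE 0.16). Its highest libraries were virgin replicate 6, at 209 CPM, and pregnant replicate 5, at 194 CPM. Of its 50-base stretches, 31.0% lie on the opposite strand in exons of 4430402I18Rik, which had 474 counts in all against 80764 of Slc1a1.

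The taurine carrier Slc6a6 (chromosome 6, 91684053 to 91759066, plus strand) had 56.5, 97.7 and 164 CPM in the lowest, median and highest pregnant library, 75.2, 123 and 177 CPM in pseudopregnant libraries, and 68.2, 89.4 and 107 CPM in virgin libraries. Pseudopregnant replicates 2, 4 and 5 and pregnant replicate 6 were high, each above all virgin libraries, and pregnant replicate 1 was the lowest of all 18. The log2 fold change was 0.21 (SE 0.23) in pregnant over virgin and 0.48 (SE 0.23) in pseudopregnant over virgin. In pseudopregnant over virgin its unadjusted p was 0.0508 and its adjusted p 0.515 by edgeR.

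**Figure D2:**
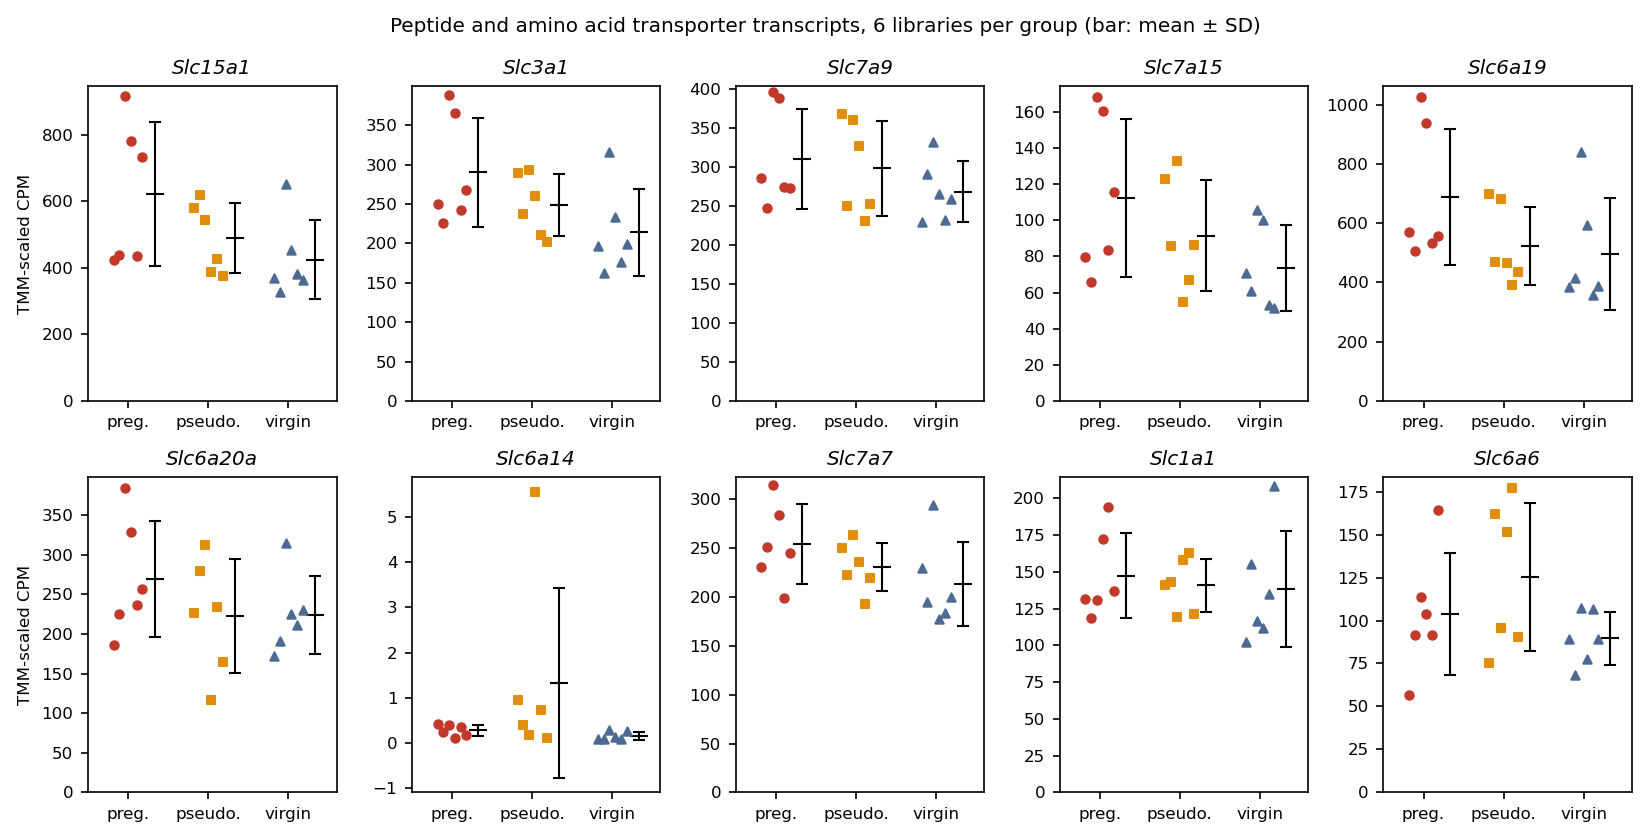
TMM-scaled CPM of each transporter by library (points), with the group mean and SD (bars), in pregnant, pseudopregnant and virgin mice; each panel has its own linear axis. Groups overlap in every panel, and 1 pseudopregnant library holds the Slc6a14 value of 5.56 CPM.

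Slc6a14 takes up neutral and basic amino acids with sodium and chloride and is known mainly from distal gut and airway (chromosome X, 21714896 to 21742355, plus strand). Its raw counts were 9, 7, 11, 4, 12 and 6 in pregnant replicates 1 to 6, 26, 14, 5, 192, 26 and 3 in pseudopregnant replicates 1 to 6, and 3, 2, 8, 4, 3 and 9 in virgin replicates 1 to 6. Pseudopregnant replicate 4 held 192 of the group's 266 counts (exact Poisson 95% interval 166 to 221, counting error only), and replicates 1 and 5 held 26 each (17 to 38.1). The pregnant total was 49 and the virgin total 29. The log2 fold change was 3.08 (SE 0.80) in pseudopregnant over virgin, with an unadjusted p of 0.00107 and an adjusted p of 0.515 by edgeR, and -2.31 (SE 0.74) in pregnant over pseudopregnant, with an unadjusted p of 0.00541 and an adjusted p of 0.920. Without pseudopregnant replicate 4 these values were 1.58 (SE 0.51) and -0.81 (SE 0.47), with adjusted p of 0.785 in the first comparison by edgeR. In pregnant over virgin the log2 fold change was 0.77 (SE 0.99). Slc6a14 passed the low-count filter over all 3 groups. With only the 12 libraries compared, it did not pass in either comparison with the virgin group.

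In pseudopregnant against virgin ileum, 9 of 10 transporters had a fold change above 0 (median log2 fold change 0.18), where 50.6% of all genes did. No transporter passed the adjusted p in edgeR, DESeq2 or limma-voom, and edgeR called 0% of all genes. Slc6a14 alone was under an unadjusted p of 0.05, against 9.37% of all genes (7.36% higher and 2.01% lower), and the groups overlapped for all 10 transporters, with 0.0681% of all genes apart. Slc6a14 was in this test only through the filter over all 3 groups, so its p is given as a description. The apical carriers differed by 0.20 (SE 0.22) for Slc15a1, 0.22 (SE 0.17) for Slc3a1, 0.31 (SE 0.27) for Slc7a15, 0.07 (SE 0.24) for Slc6a19 and -0.01 (SE 0.22) for Slc6a20a on the log2 scale.

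In pregnant against pseudopregnant ileum, 8 of 10 transporters had a fold change above 0 (median 0.18, against 48.4% of all genes above 0), with Slc6a14 and Slc6a6 (-0.27, SE 0.23) below 0. No transporter passed the adjusted p in edgeR, DESeq2 or limma-voom, and edgeR called 0% of all genes. At an unadjusted p under 0.05 stood Slc6a14 alone, lower, against 2.35% of all genes (0.763% higher and 1.59% lower), and the groups overlapped for all 10, with 0.0273% of all genes apart. Log2 fold changes were 0.39 (SE 0.24) for Slc6a19, 0.35 (SE 0.22) for Slc15a1 and 0.30 (SE 0.26) for Slc7a15. The 3 comparisons share libraries, so their values are not independent of each other.

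**Figure D3:**
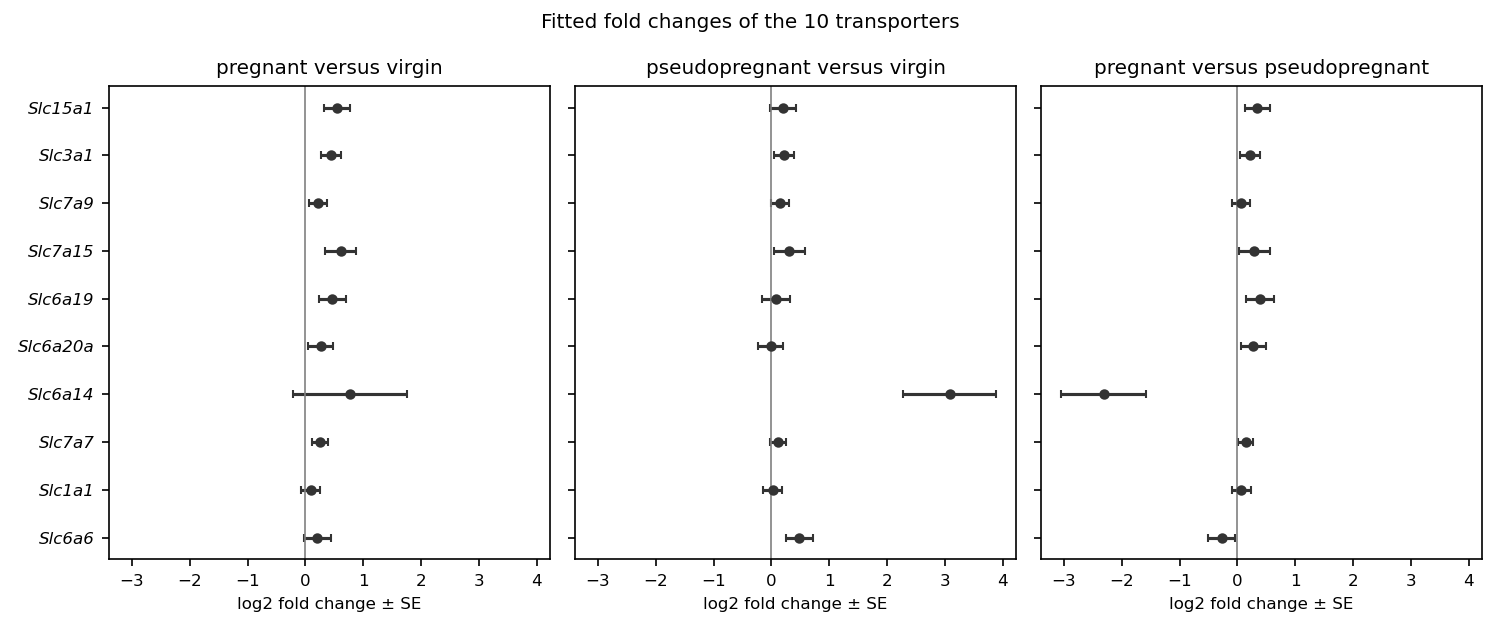
Fitted log2 fold change (point) ± SE (bar) of the 10 transporters in pregnant over virgin, pseudopregnant over virgin and pregnant over pseudopregnant, on a shared axis. All 10 points lie above 0 in pregnant over virgin, and Slc6a14, at 3.08 and -2.31, lies far from the others in the comparisons with the pseudopregnant group.

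Levels of most transporters varied from library to library together with the markers of absorptive enterocytes, the mature cells of the villus. A score was the mean, over 15 marker genes such as Alpi, Fabp1, Apoa4 and Sis, of each gene's log2 CPM minus its mean over the 18 libraries. Correlations were computed for 10 genes, with 100000 permutations and Benjamini-Hochberg adjustment over the 10. The permutations shuffled all 18 libraries without regard to group or replicate number. Slc15a1 followed the score with Pearson's r of 0.848 (permutation p 2e-05, adjusted 0.0001) and Spearman's rho of 0.858 (permutation p 3e-05, adjusted 0.00015) over 18 libraries. Pearson's r was 0.942 within the pregnant, 0.724 within the pseudopregnant and 0.910 within the virgin group, and 0.823 without virgin replicates 2 and 6, the libraries farthest from the median score. The relation was thus positive within each group of 6. Replicate 3 had the highest score in each group (0.695 in pregnant, 0.495 in pseudopregnant and 0.733 in virgin) and stayed in all these values. How far the within-group values depend on these libraries was not tested.

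The same held for Slc3a1 (r = 0.833, rho = 0.806, permutation p 3e-05, adjusted 0.0001), Slc7a15 (r = 0.845, rho = 0.880, permutation p 1e-05, the smallest they can give, adjusted 0.0001), Slc6a19 (r = 0.820, rho = 0.812, permutation p 7e-05, adjusted 0.00014) and Slc7a7 (r = 0.802, rho = 0.752, permutation p 5e-05, adjusted 0.000125), the p-values being those of r. Slc6a20a (r = 0.655, rho = 0.643, permutation p 0.0032, adjusted 0.00533) and Slc7a9 (r = 0.574, rho = 0.498, permutation p 0.0136, adjusted 0.0195) followed the absorptive score less closely, and the rho of Slc7a9 had an adjusted p of 0.0523. These 6 genes had r between 0.420 and 0.934 within every group. Slc1a1 ran the other way (r = -0.512, rho = -0.488, permutation p 0.0305, adjusted 0.0382) with r of -0.324, -0.612 and -0.744 within the pregnant, pseudopregnant and virgin groups. Without virgin replicates 2 and 6, its r was -0.336. Slc6a6 (r = 0.215, permutation p 0.391) and Slc6a14 (r = -0.0276, permutation p 0.916) showed no relation that passed the test. Among the 7 genes with a positive r over 0.5, the 21 pairs had r of 0.44 to 0.937 over the 18 libraries (median 0.789), with Slc3a1 and Slc6a19 the closest, and the 24 pairs with Slc1a1, Slc6a6 or Slc6a14 had r of -0.328 to 0.357 (median 0.0395). This division was made after the values had been seen. With a score of 15 proliferation markers made the same way, the 7 genes had r of -0.766 (Slc7a15) to -0.867 (Slc6a19). Slc7a9 had -0.824 and Slc6a20a -0.772, and Slc1a1, Slc6a6 and Slc6a14 had 0.107, 0.0289 and -0.013. These values were not tested.

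The same markers were compared between the groups, which overlapped in their summed level. Summed CPM of the 15 absorptive markers was 27386, 38902 and 57157 in the lowest, median and highest pregnant library, 24949, 30871 and 48672 in pseudopregnant libraries, and 22350, 31596 and 60016 in virgin libraries, with no marker at 0 in all libraries. In pregnant over virgin 13 of 15 absorptive markers were above 0 (median log2 fold change 0.32, 1 at an unadjusted p under 0.05), and 0 of 15 proliferation markers (median -0.20, none at an unadjusted p under 0.05 in edgeR). With the absorptive minus the proliferation score as a covariate, the log2 fold change of pregnant over virgin was 0.29 (SE 0.13) for Slc15a1, 0.265 (SE 0.098) for Slc3a1, 0.29 for Slc7a15, 0.22 for Slc6a19, 0.13 for Slc7a7, 0.08 for Slc7a9, 0.05 for Slc6a20a, 0.19 for Slc1a1, 0.18 for Slc6a6 and 1.16 for Slc6a14. All 10 stayed above 0, Slc15a1 and Slc3a1 were under an unadjusted p of 0.05, and the edgeR adjusted p of each was 0.999. Of the 3 transporters at an unadjusted p under 0.05, none remained without pregnant replicate 3 or without pregnant replicate 4, and Slc3a1 alone without virgin replicate 2. Slc15a1 and Slc3a1 remained, and Slc7a15 did not, without virgin replicate 1, 5 or 6. Without virgin replicate 3 or pregnant replicate 5, Slc6a19 and Slc7a7 joined the 3, making 5. The count over all genes moved as well. It was 265 of 14814 without pregnant replicate 3, 223 of 14824 without pregnant replicate 4 and 315 of 14792 without virgin replicate 2. Without virgin replicate 3 it was 1953 of 14805, where all libraries gave 540 of 14675. With each library left out in turn, the count over all genes ran from 223 to 1953. Leaving out each library in turn gave 0.41 to 0.71 for Slc15a1, 0.34 to 0.58 for Slc3a1 and 0.46 to 0.74 for Slc7a15.

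**Figure D4:**
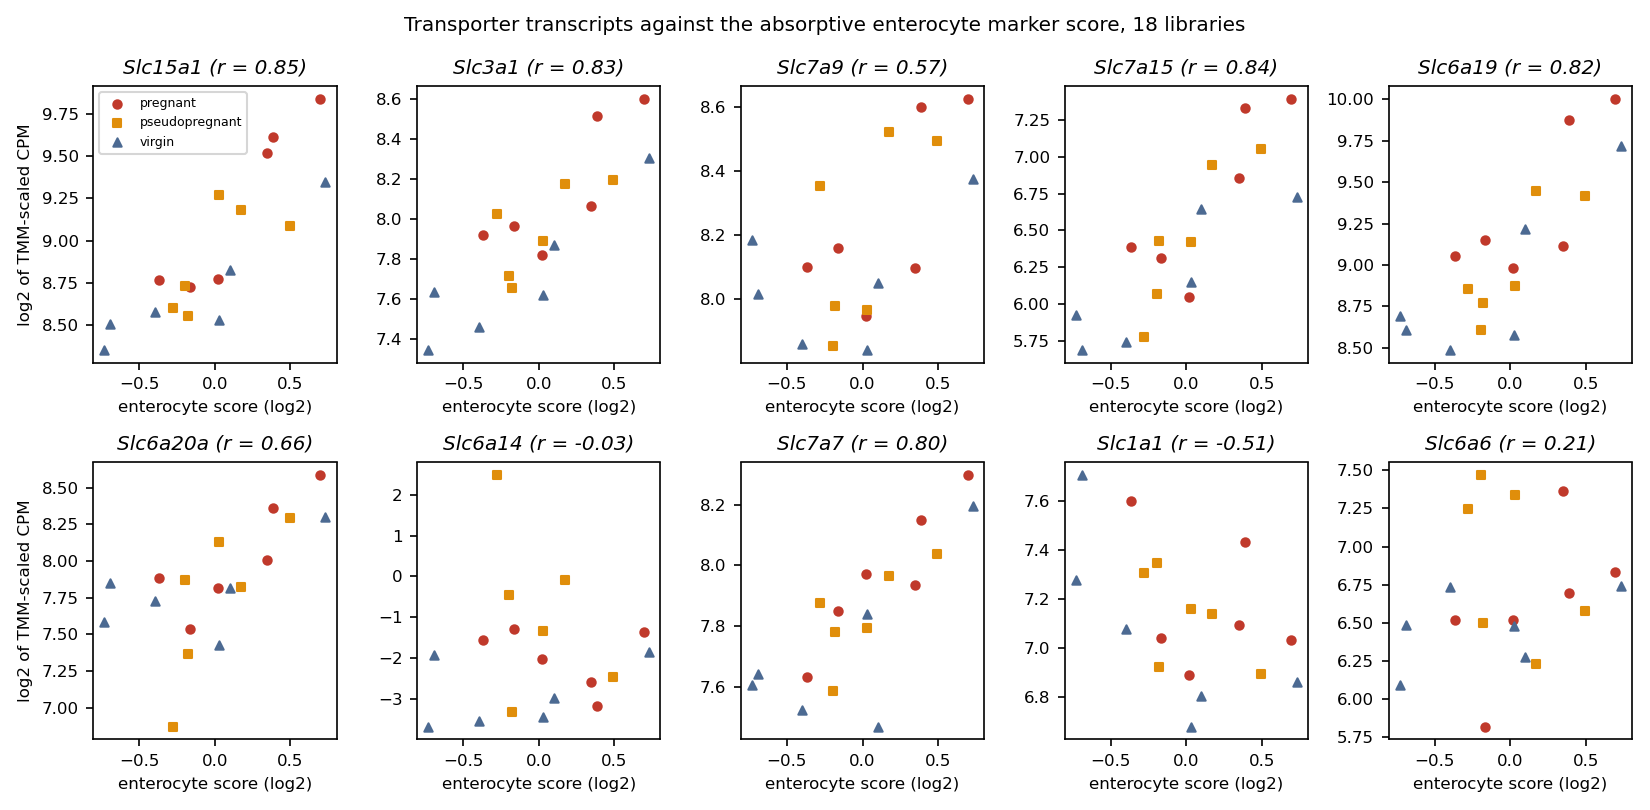
Log2 of TMM-scaled CPM of each transporter (vertical) against the absorptive enterocyte score (horizontal, mean log2 deviation of 15 markers), one point per library, coloured by group. Panel titles give Pearson's r, taken on log2 CPM with a prior count of 2; the points rise with the score for Slc15a1 (0.848), and fall with it for Slc1a1 (-0.512).

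Ratios between partners, on the CPM per kb scale, were chosen after the values had been seen. The heavy to light chain ratio of Slc3a1 to Slc7a9 was 1.10 ± 0.0543 in pregnant, 0.992 ± 0.0815 in pseudopregnant and 0.938 ± 0.161 in virgin libraries (SD, n = 6 each). Its range was 1.03 to 1.16 in pregnant and 0.659 to 1.12 in virgin libraries, which overlap. In exact two-sided permutation tests over 924 arrangements, p was 0.0325 for pregnant against virgin and 0.0303 for pregnant against pseudopregnant, and 0.292 for each after adjustment over 18 tests of 6 ratios. The ratio of Slc7a7 to Slc3a2 was 0.819 in pregnant, 0.856 in pseudopregnant and 0.781 in virgin libraries, and that of Slc7a15 to Slc7a9 was 0.315, 0.275 and 0.245, in the same order. No ratio passed an adjusted p of 0.05, and the smallest was 0.292.

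A list of brush border peptidases, which cut peptides beside these carriers, and of carrier partners gave 10 of 11 fold changes above 0 in pregnant over virgin (median log2 fold change 0.47), with 5 at an unadjusted p under 0.05, all higher, where 3.68% of all genes were (2.02% higher), and none past the adjusted p in edgeR. The gene below 0 was Cltrn (collectrin), a carrier partner with no peptidase activity, at -0.48. With 1 library left out the count of 5 ran from 1 (without pregnant replicate 3 or 4, or virgin replicate 1 or 5) to 10 (without virgin replicate 3). Over all genes the count was 265 of 14814 without pregnant replicate 3 and 1953 of 14805 without virgin replicate 3. Xpnpep2, which removes the residue before proline, averaged 606 ± 200 CPM in pregnant and 396 ± 78.7 in virgin libraries (log2 fold change 0.61, SE 0.20). Enpep, a glutamyl aminopeptidase, averaged 1747 ± 455 and 1292 ± 361 CPM (0.43, SE 0.19), and Dpp4, which releases dipeptides ending in proline, 644 ± 242 and 453 ± 128 CPM (0.51, SE 0.23), in the same order. In pseudopregnant over virgin 10 of 11 were above 0 (median 0.19) and 0 were at an unadjusted p under 0.05 in edgeR, against 9.37% of all genes, with Dpp4 at 0.46 (SE 0.23), Ace at 0.51 (SE 0.33) and Cltrn at -0.60 (SE 0.40). In pregnant over pseudopregnant 11 of 11 were above 0 (median 0.21), 0 were at an unadjusted p under 0.05 in edgeR, against 2.35% of all genes, and Xpnpep2 stood at 0.34 and Ggt1 at 0.29. The median absorptive marker score was 0.18 in pregnant and -0.18 in virgin libraries. The covariate fit above is given for the transporters only, and the part of the score in the peptidase values was not examined.

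Of 34 other amino acid and peptide transporters, 29 were tested. In pregnant over virgin 20 of 29 were above 0 (median log2 fold change 0.10) and 0 were at an unadjusted p under 0.05 in edgeR, against 3.68% of all genes, with Slc6a18, a glycine and neutral amino acid carrier best known from kidney, at 1.09 (SE 0.53) and the proton-coupled carrier Slc36a1 at 0.72 (SE 0.36). Slc43a2 (0.46) and the aromatic amino acid carrier Slc16a10 (0.42) were next in order of p, though not of fold change. Slc6a18 was low in all libraries, at 0.145 to 2.46 CPM (5 to 85 counts), which limits what its fold changes can say. In pseudopregnant over virgin 25 of 29 were above 0 (median 0.39) and 4 were at an unadjusted p under 0.05, all higher, where 9.37% of all genes were (7.36% higher): the glycine carrier Slc6a9 (0.68, SE 0.27), the glutamine carrier Slc38a1 (0.60, SE 0.25), the large neutral amino acid carrier Slc7a5 (0.79, SE 0.35) and Slc6a18 (1.15, SE 0.53). Without pseudopregnant replicate 4, the library high in Slc6a14, Slc7a5 stood at 0.32 (SE 0.28) and Slc6a18 at 0.61 (SE 0.50), and 1 of 29 was at an unadjusted p under 0.05, as it was without pseudopregnant replicate 5 or virgin replicate 2. With 1 library left out the count reached 7 at most, without pseudopregnant replicate 6. Over all genes the count ran from 540 to 3390 with 1 library left out. In pregnant over pseudopregnant 7 of 29 were above 0 (median -0.24) and Slc6a9 alone was at an unadjusted p under 0.05, against 2.35% of all genes (-0.57, SE 0.26), with Slc7a5 at -0.69, Slc7a6 at -0.57 and Slc36a4 at -0.46. The 10 transporters had medians of 0.35, 0.18 and 0.18 in the 3 comparisons.

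The other lists were small. Over all genes, 48.5% were above 0 in pregnant over virgin, 50.6% in pseudopregnant over virgin and 48.4% in pregnant over pseudopregnant. At an unadjusted p under 0.05 in edgeR stood 3.68%, 9.37% and 2.35% of all genes, in the same order. Of 5 genes of the ion gradient and apical scaffold, 5 were above 0 in pregnant over virgin, 4 in pseudopregnant over virgin and 4 in pregnant over pseudopregnant, none at an unadjusted p under 0.05 in edgeR. The scaffold Pdzk1 stood at 0.40 (SE 0.25) in pregnant over virgin, and the sodium-proton exchanger Slc9a3, whose activity maintains the gradient used by Slc15a1, at 1.39 (SE 0.69) in pseudopregnant over virgin and -1.06 in pregnant over pseudopregnant. Of 6 cytosolic peptidases, 6, 4 and 5 were above 0 in these comparisons and none at an unadjusted p under 0.05 in edgeR, with Lap3 at 0.39 (SE 0.22) in pregnant over virgin. Of 10 genes of the amino acid response, Atf4, the factor that answers amino acid shortage, and 9 of its targets, 3, 4 and 3 were above 0 in these comparisons, with medians of -0.17, -0.13 and -0.08. Those at an unadjusted p under 0.05 in edgeR numbered 1, 2 and 0. Atf5 averaged 5.63 ± 0.916 CPM in pregnant and 7.29 ± 0.855 in virgin libraries (log2 fold change -0.38, SE 0.14), with 0 of 6 pregnant libraries above the virgin median. In pseudopregnant over virgin Cth stood at -0.37 (SE 0.14) and Chac1 at 1.37 (SE 0.55), or 0.29 (SE 0.37) without pseudopregnant replicate 4. Of 6 enterocyte transcription factors, 5, 5 and 2 were above 0, with Hnf4a at 0.20 (SE 0.19) in pregnant over virgin, and Ppara at 0.79 (SE 0.25) and Cdx2 at -0.39 (SE 0.17) in pseudopregnant over virgin. Ppara was at -0.63 (SE 0.25) in pregnant over pseudopregnant. Of these 6 factors, 0, 2 and 1 were at an unadjusted p under 0.05 in edgeR in the 3 comparisons. No gene of these lists passed the adjusted p in edgeR.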

How the data were processed

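RNA was measured by sequencing in 18 libraries of sorted ileal epithelium, from RNA purified with RNeasy Plus Micro columns, selected for poly(A) and made into NEBNext Ultra II Directional libraries, per the labels' protocols. Each library has a deposited table of the authors' raw read counts by Ensembl gene, not normalized. Per the submitters' processing notes, the build was GRCm38 and the tools were HISAT2 2.0.4, Subread 2.0.0 with featureCounts, FastQC 0.11.5 and DESeq2 1.24.0. Neither the strand setting nor the annotation release is stated in the sources at hand, so genes that overlap on opposite strands may share reads.

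Titles gave the group and replicate number of each library. Symbols and positions came from GENCODE M21 on GRCm38 and matched 47310 IDs. The 419 IDs without a match took up to 0.029% of the counts in any library. Replicates of a group were not duplicates (their counts differed with a chi-square of 35.5 to 455.8 per degree of freedom). Genes were kept by filterByExpr with 3 groups (14675 genes), scaled by TMM and tested with edgeR 4.0.16 in R 4.3.3 (quasi-likelihood, 1 mean per group, all 18 libraries, two-sided, Benjamini-Hochberg adjustment over 14675 genes, threshold 0.05). Fold changes are log2 with their SE, and group values are means ± SD of CPM. Scores and correlations used log2 CPM with a prior count of 2. Promoters are RefSeq windows of 250 bases on GRCm38.p6. Alternatives were DESeq2 1.42.0 as a test and as a scaling, limma-voom 3.58.1, no low-count filter, CPM of at least 1 in 6 libraries, only the 12 libraries compared, a replicate block, a villus-minus-crypt covariate and each library left out. Leaving out replicate 3 of all groups, and leaving out each library for the genes of the other lists, were added after seeing the data. The fit was tested on simulated data.

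The transporters and the gene lists were chosen with earlier results of these data known. The named genes are all 10 transporters, Slc6a20b, Slc3a2 and Slc7a8, and per comparison the genes of smallest p in each list (4 other transporters, 3 peptidases, 2 in each remaining list), and the 5 genes whose log2 CPM correlates best with the mean score of the transporters, at a mean CPM of at least 2. Some genes that this rule names are not reported here.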

Additional observations from a re-analysis of the deposited data

Results flagged for a closer look

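Of 60 groups of 6 libraries tested for a value apart from the rest (Dixon's test at its 95% critical value), 3 were flagged, and chance flags about 1 in 20 groups. Slc6a14 had 5.56 CPM in pseudopregnant replicate 4, where the other pseudopregnant libraries had 0.101 to 0.944 CPM. The ratio of Slc15a1 to Slc6a19, in CPM per kb, was 1.35 in pregnant replicate 6, against 0.762 to 0.914 in the other pregnant libraries. This ratio was also 1.35 in pseudopregnant replicate 2 and 1.12 in pseudopregnant replicate 5, so the value is apart from its own group and not from all 18 libraries. The ratio of Slc6a20b to Slc6a20a was 0.0148 in virgin replicate 2, against 0.0357 to 0.0478 in the other virgin libraries.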

How the results depend on the processing

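No transporter passed an adjusted p of 0.05 in any comparison under any alternative (range 0.321 to 1 in pregnant over virgin, 0.0781 to 1 in pseudopregnant over virgin, the lowest for Slc6a14 with DESeq2, and 0.448 to 1 in pregnant over pseudopregnant). Over all genes, in pregnant over virgin, DESeq2 called 5 and the replicate block 1, none a transporter. Of the transporters' fold changes under the alternatives, 607 kept their direction and 18 reversed. The reversals were for Slc7a9 in pregnant over pseudopregnant with the villus covariate (-0.0212) and, with 1 library left out, for Slc1a1 (-0.0008 to 0.2483 in pregnant over virgin, -0.058 to 0.1816 in pseudopregnant over virgin, -0.0276 to 0.1219 in pregnant over pseudopregnant), Slc6a19 (-0.0371 to 0.2893) and Slc6a20a (-0.1337 to 0.1202) in pseudopregnant over virgin, and Slc7a9 (-0.0207 to 0.1397) in pregnant over pseudopregnant. The cause was not tested.

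The number of transporters at an unadjusted p under 0.05, 3 in pregnant over virgin, was 5 with the replicate block (Slc6a19 and Slc7a7 were added), 5 without replicate 3 of all groups and 0 to 5 with 1 library left out. In pseudopregnant over virgin, 1 became 2 with no filter, with DESeq2, with the replicate block and without replicate 3 of all groups. It was 0 with the CPM filter, which removed Slc6a14, and 1 to 3 with 1 library left out (3 without virgin replicate 3). With only the 12 libraries compared it stayed 1, but the gene was Slc6a6, because Slc6a14 did not pass the filter. In pregnant over pseudopregnant, 1 became 0 with the CPM filter and limma-voom, 2 with the replicate block, and 0 without pseudopregnant replicate 4 (range 0 to 1). Transporters above 0 numbered 9 to 10, 7 to 10 and 7 to 8 with 1 library left out. Counts over all genes are given below for only some of these settings. The changes in number therefore describe the genes named and are not a result about the transporters as a set.

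Replicate numbers are shared between the groups, but the deviations of same-numbered libraries correlated at -0.483 to 0.662 (median 0.134, 10 of 18 pairs over 0.1), against a median of -0.0403 for different numbers (30 of 90 pairs over 0.1). Not every pair was over 0.1 and 5 of 18 libraries correlated best with their own number, so the main fit treats the libraries as sharing only a number. Replicate 3 had the highest absorptive score in each group, and the labels do not say what a shared number stands for. In the fit with the replicate block, the log2 fold change of pregnant over virgin was 0.44 (SE 0.11) for Slc3a1 and 0.48 (SE 0.15) for Slc6a19. The edgeR adjusted p of each was 0.699. With the block, 979 genes were at an unadjusted p under 0.05 in pregnant over virgin, where 540 were without it. This number was 989 with no filter, 319 with the villus covariate, 1084 without replicate 3 of all groups and 223 to 1953 with 1 library left out. It was 2272 without replicate 3 of all groups and 540 to 3390 with 1 left out in pseudopregnant over virgin (1375), and 844 with no filter, 618 with the block and 120 to 1568 with 1 left out in pregnant over pseudopregnant (345). The low counts of Slc6a14, 2 to 12 in most libraries, limit what can be read from it.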

Other observations

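The genes whose log2 CPM followed the mean score of the 10 transporters most closely over the 18 libraries, among 11483 other genes ranked by Pearson's r, were Ptpre (r = 0.944), the prostaglandin carrier Slco2a1 (0.938), the creatine carrier Slc6a8 (0.935), Tmc5 (0.928) and Tpcn1 (0.926). The libraries share depth and composition, and r is given as a description. The score weights all 10 transporters equally, including Slc6a14 with its 192 counts in pseudopregnant replicate 4. That library scored 0.288, although its Slc6a20a, at 117 CPM, was the lowest of the 18 libraries. The part of Slc6a14 in this ranking was not tested. Slc6a8 averaged 514 ± 119 CPM in pregnant, 475 ± 98.5 in pseudopregnant and 383 ± 110 in virgin libraries (SD, n = 6 each). Its log2 fold change was 0.42 (SE 0.19) in pregnant over virgin, 0.31 (SE 0.19) in pseudopregnant over virgin and 0.11 (SE 0.19) in pregnant over pseudopregnant. Slco2a1 averaged 77.0 ± 27.4 CPM in pregnant, 69.5 ± 14.8 in pseudopregnant and 52.1 ± 22.4 in virgin libraries, with log2 fold changes of 0.56 (SE 0.25), 0.42 (SE 0.25) and 0.15 (SE 0.25) in the same comparisons.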
